A study of Mus musculus with 32 samples.

Results

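The tubulin genes described here are Tubb2b, Tubb2a, Tubb3, Tubb4, Tubb5, Tubb6, Tuba1a, Tuba1b, Tuba4a and Tubg1, and their members are all probes that the array table lists under these 10 symbols. They have 16 probes of the 25697 in the table, 6 of them for Tubb2b, 2 for Tubb5 and 1 for each other gene. The set was selected on values of the ethanol and control arrays, with the difference between these groups already known, so that difference is given for them as a description, without a test. For the tubulin probes, p-values are given only for comparisons that the choice did not use. Their calls between ethanol and control are given as a description, beside the share of all probes. Other genes that act on tubulin were tested between ethanol and control, from lists chosen with earlier results of these data known.

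The arrays measured mRNA in the frontal cortex (FCtx) of 32 female F1 hybrid mice of C57BL/6J and FVB/NJ, bred in both directions of the cross by the methods, although the labels give every mouse as C57BL/6J x FVB/NJ F1. The 20 ethanol-treated mice chose between water and 20% ethanol in a few hours of every dark cycle (the drinking in the dark procedure) for 20 days, the 12 controls received no ethanol, and the ages of the mice are not given in the sources used here. All were killed within a day of the last session, so intake and the time without ethanol after it are both part of the treatment. Each mouse had 1 array on 1 of 4 Illumina MouseRef-8 v2.0 chips, on which a 50-base probe is read by many beads. Chips 1 and 2 carried 8 ethanol-treated mice each and chip 4 carried 8 controls, so the treatment was compared within a chip only on chip 3, where 4 ethanol-treated mice lay at the odd positions (A, C, E, G) and 4 controls at the even positions (B, D, F, H). On every chip the even positions also held the mice with the higher numbers, so position and mouse number cannot be told apart.

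Tubulin is the subunit of microtubules, the hollow filaments that carry transport along axons and dendrites and build the mitotic spindle. An α-tubulin and a β-tubulin form a dimer, dimers add to the ends of the filament, and γ-tubulin in a ring complex starts new filaments. Mammals have several genes, called isotypes, for α-tubulin and β-tubulin. Their proteins are nearly identical apart from the tail that modifying enzymes and motors recognise. Tubb2b and Tuba1a are isotypes of neurons, prominent during brain development and mutated in human cortical malformations.

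Values are on the log2 scale after a variance-stabilizing transform and quantile normalization, and levels of different probes cannot be set against each other. Between 10644 and 11544 probes were detected per array in the ethanol group and between 9480 and 11413 in the control group, where mouse C66 on chip 4 had the fewest. Tests were limited to the 10187 probes detected (p-value under 0.01) on 24 or more arrays. Of the 16 tubulin probes, 11 from 7 genes passed this filter, each with a detected signal on all 32 arrays. The probes of Tubb2a (detected on 0 arrays), Tubb3 (1 array) and Tubb6 (13 arrays) did not, nor did the Tubb2b probe at transcript base 1861 and the Tubb5 probe at base 280 (0 arrays each). Tubb3 encodes the neuron-specific β-tubulin, so a probe listed without signal in cortex is no measure of whether the gene was expressed.

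The 5 tested Tubb2b probes are named by the base of the transcript at which they start. The first 30 bases of each are shown because the probes for the 2 ends of the transcript gave different results, and capitals mark the bases that the probes at 24 and 29 have in common within the stretch shown.
Tubb2b at 24: cggagTAAGTTCCAGGTGGCCCAGCAGTGG
Tubb2b at 29: TAAGTTCCAGGTGGCCCAGCAGTGGgtgtg
Tubb2b at 1176: gccgtgtgtgacatccctcctcgtggcctc
Tubb2b at 1460: agttccccaggccaagcaggttagggaaag
Tubb2b at 1564: aggtttgtgctgggtctctggtgctcttca
The probes at 24 and 29 overlap by 45 of their 50 bases, so they are 2 readings of nearly the same stretch and not independent evidence. In the RefSeq promoter table for GRCm38.p6 their full sequences matched 1 window each, at chr13:34130282-34130331 and chr13:34130277-34130326 on the minus strand, which is the strand of Tubb2b. This lies at the 5′ end of Tubb2b (chr13:34127008-34130354) and upstream of Gm36500 (chr13:34130478-34138469), a long noncoding RNA gene on the plus strand. The other 3 probes lie further along the transcript. Their coordinates are not given, because the array table places the overlapping probes 84.4 kb apart and so mixes genome builds.

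The 5′ end of Tubb2b read higher in ethanol-treated mice than in controls, and the rest of the transcript did not. The probe at 24 had a lowest, median and highest value of 8.64, 8.96 and 9.39 in the 20 ethanol-treated mice and of 7.94, 8.37 and 8.70 in the 12 controls. Thus 19 of 20 ethanol-treated mice lay above the highest control, the exception being mouse A50 on chip 3. The means were 8.98 ± 0.22 (SD, n = 20) and 8.38 ± 0.23 (SD, n = 12), a difference of 0.60 (standard error 0.07), or 1.52-fold. The probe at 29 followed it, from 8.13 over a median of 8.52 to 8.74 in the ethanol group and from 7.87 over 8.05 to 8.41 in the controls, with 12 of 20 ethanol-treated mice above the highest control and all 20 above the control median. Its difference was 0.41 (standard error 0.07), or 1.33-fold. Whether this difference is one of Tubb2b RNA or only of the reading at these probes was not tested. In bulk tissue, a change in the number of cells that express a gene also cannot be told apart from a change in RNA per cell.

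**Figure D1:**
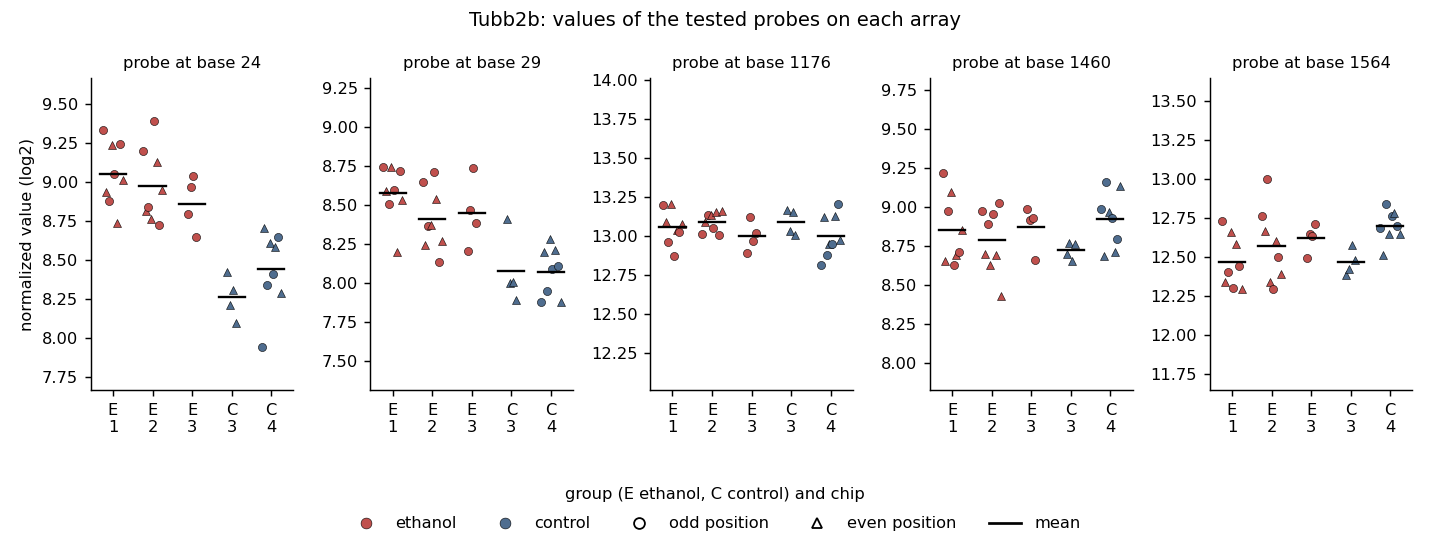
Normalized values (log2) of the 5 tested Tubb2b probes in each mouse, by group (E ethanol, C control) and chip, with circles at odd and triangles at even array positions and lines at the means. The probes at 24 and 29 have higher means in each ethanol set than in each control set, while the probes at 1176, 1460 and 1564 overlap between groups; each panel spans 2 log2 units.

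Along the rest of the transcript the differences were within 0.1 on the log2 scale. At 1176, in the brightest Tubb2b probe (median signal 8398), the ethanol group had a mean of 13.06 ± 0.09 (SD, n = 20) and the controls of 13.03 ± 0.12 (SD, n = 12), a difference of 0.03 (standard error 0.04). At 1460 the lowest, median and highest values were 8.43, 8.87 and 9.22 in the ethanol group and 8.65, 8.78 and 9.16 in the controls, and the difference was -0.02 (standard error 0.06). At 1564 they were 12.29, 12.54 and 12.998 in the ethanol group and 12.38, 12.65 and 12.84 in the controls, and the difference was -0.08 (standard error 0.06). In all 3 probes the groups overlapped over most of their range. The median signals of the probes at 24, 29 and 1460 were 461, 326 and 447, and the part of signal level in the 5′ difference was not tested. For each mouse the mean of the 3 other probes was subtracted from the mean of the 5′ probes. The result ran from -3.08 to -2.39 in the ethanol group and from -3.59 to -2.99 in the controls, so the ranges overlapped. It rests on the comparison that chose the genes, so nothing is read from it.

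On chip 3, where both groups shared a chip, the 5′ difference had the same size. The probe at 24 read 8.79, 8.97, 9.04 and 8.64 in the 4 ethanol-treated mice and 8.42, 8.21, 8.31 and 8.09 in the 4 controls, a difference of 0.60 (standard error 0.09). These groups did not overlap, which on chip 3 held for 15.2% of all tested probes. The probe at 29 read 8.20, 8.47, 8.74 and 8.38 in the ethanol-treated mice and 8.41, 7.998, 8.01 and 7.89 in the controls, so that control C52 lay above 2 of the ethanol-treated mice, and the difference was 0.37 (standard error 0.11). Between chips 1 and 2 and chip 4 the differences were 0.57 (standard error 0.09) and 0.42 (standard error 0.08). With chip and odd or even position both in the fit they were 0.58 (standard error 0.16) and 0.34 (standard error 0.14). That fit has a position term common to all chips.

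The other 3 Tubb2b probes did not keep a direction. The probe at 1176 was -0.09 on chip 3 and 0.07 between chips, that at 1460 was 0.15 and -0.10, and that at 1564 was 0.16 and -0.18. Only the probes at 24 and 29 among the Tubb2b probes had the same sign in both parts of the comparison.

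**Figure D2:**
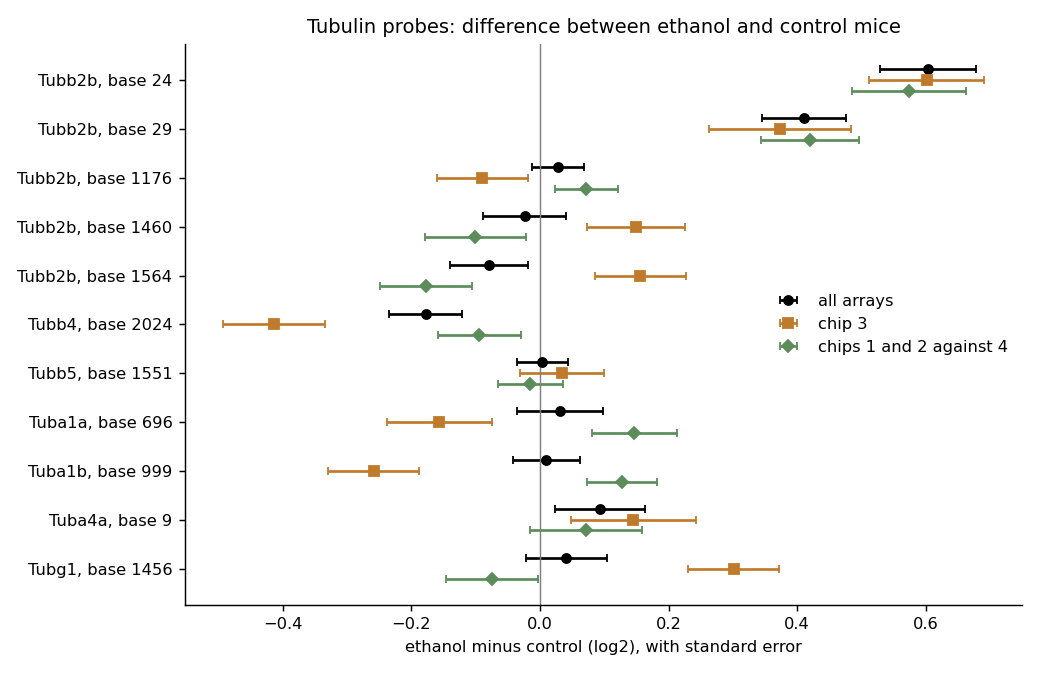
Differences between ethanol-treated mice and controls (log2, with standard errors) for the 11 tested tubulin probes over all arrays (20 and 12 mice), on chip 3 (4 and 4) and between chips 1 and 2 and chip 4 (16 and 8). The 2 Tubb2b probes at the 5′ end lie between 0.37 and 0.60 in all 3, and the probes of Tuba1a, Tuba1b and Tubg1 lie on opposite sides of 0 on chip 3 and between chips.

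Among all probes, 40 of 10187 had a difference at least as high as the weaker 5′ probe and 6 one at least as high as the stronger. Of the 11 tubulin probes 2 passed an FDR of 1% over all arrays, both higher, where 8.18% of all tested probes passed and 3.65% were higher. In no tubulin probe did the 2 groups lie wholly apart over all arrays, which held for 0.00982% of all probes. Of the probes called over all arrays 44.7% were higher, and 88.1% with median scaling. On chip 3 also 2 passed, the Tubb2b probe at 24 (higher) and that of Tubb4 (lower), with 3.27% of all probes, 1.54% higher and 1.73% lower. Between chips again 2 passed, the 5′ probes of Tubb2b, with 11.7% of all probes and 5.94% higher. This comparison chose the genes, so nothing is read from these counts. The 301 tested probes within the first 100 bases of their transcript had a median difference of 0.01, with 25 higher and 18 lower (14.3% called), against 7.99% called among the 9886 probes further along.

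The Tubb2b probes also varied among the mice in different ways, which was examined within each combination of group, chip and odd or even position, so that none of these enters. The relations were chosen after the values were seen. The probes at 24 and 29 rose and fell together over the 32 mice (Pearson's r = 0.83, Spearman's rho = 0.89, permutation p = 1e-05 for both, the smallest that 100000 resamples can give, adjusted p = 0.00055 over 55 pairs of tubulin probes). Without the 2 mice farthest from the median r was 0.82. The probes at 24 and 29 share 45 of their 50 bases, so a close relation was set in advance by their design. It is therefore not read as a result about the gene. The probe at 24 had a weaker relation with that at 1176 (r = 0.58, permutation p = 0.004, adjusted p = 0.11; rho = 0.60, permutation p = 0.0017, adjusted p = 0.048; r = 0.53 without the 2 mice farthest from the median). With the probes at 1460 and 1564 its r was 0.03 (permutation p = 0.87, adjusted p = 0.99) and -0.02 (permutation p = 0.93, adjusted p = 0.99).

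The probe at 1564 followed genes of the olfactory bulb, and also Dlx1 and Dcx, which were not among the bulb markers. The tissue was cut without the bulbs, yet Th, Trh, Doc2g and Sp8, genes of bulb neurons of which Th (tyrosine hydroxylase) is also found in fibres and scattered cells elsewhere, passed the detection filter, with a mean between 7.46 and 8.95 in the ethanol group and between 7.39 and 8.76 in the controls. Eomes, Cdhr1 and Tbx21, which mark the projection neurons of the bulb, did not pass the filter or had no probe. The Tubb2b probe at 1564 rose with the mean of the 4 genes (r = 0.83, permutation p = 8e-05, adjusted p = 0.0035; rho = 0.80, permutation p = 9e-05, adjusted p = 0.0057, over 88 pairs of a tubulin probe and a marker list), and without the 2 mice farthest from the median r was 0.75. With each of the 4 genes r was between 0.69 (Trh) and 0.82 (Doc2g), and with Dlx1, a transcription factor of inhibitory neurons and their precursors, it was 0.86 (permutation p = 6e-05, adjusted p = 0.0035). With Dcx, a gene of migrating young neurons, r was 0.82. The probes at 24 and 29 had an r of 0.03 and 0.05 with the mean of the 4 bulb markers, and those at 1176 and 1460 of 0.24 and 0.16.

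**Figure D3:**
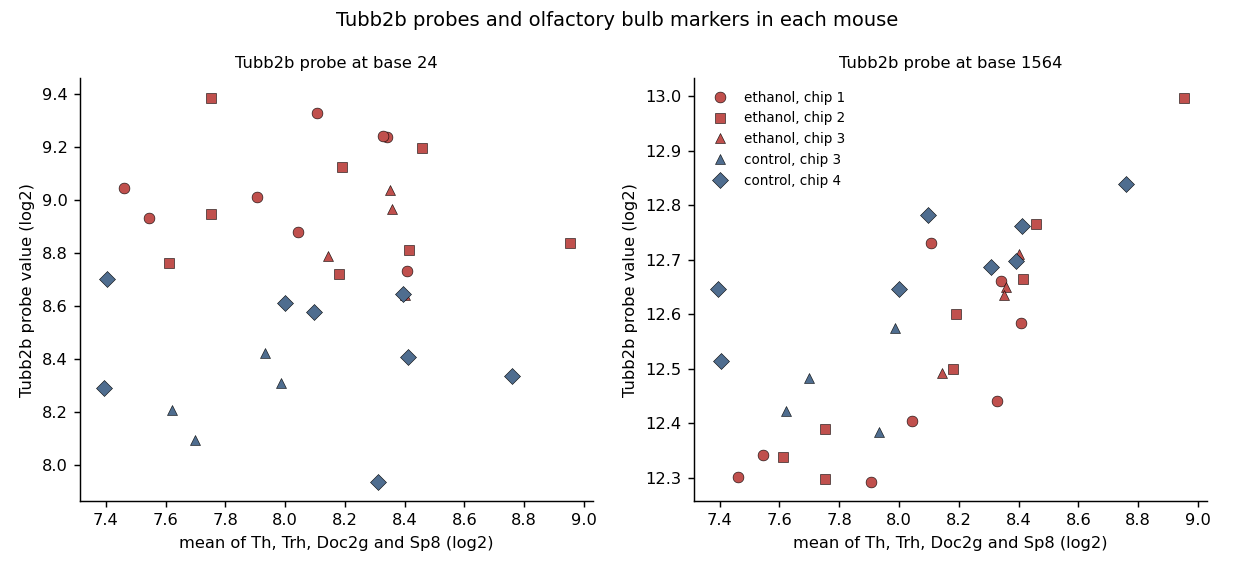
Value of the Tubb2b probe at 24 (left) and at 1564 (right) against the mean of the olfactory bulb markers Th, Trh, Doc2g and Sp8 in each of the 32 mice, all log2, by group and chip. The probe at 1564 climbs with the markers in both groups (r = 0.83 within combinations of group, chip and position), while the probe at 24 shows no such slope (r = 0.03) and its groups overlap in 1 ethanol-treated mouse, A50.

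On chip 3 the mean of the bulb markers was 0.50 higher in the ethanol-treated mice and the probe at 1564 was 0.16 higher. Over all arrays they were 0.14 higher and 0.08 lower. The bulb markers had a mean even minus odd difference of -0.34, and the controls of chip 3 lay at the even positions. Position and treatment therefore cannot be told apart for these markers on chip 3. The part of these markers in the differences of the probe at 1564 was not tested.

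Of the other β-tubulins, Tubb4 (now Tubb4a, a brain β-tubulin abundant in oligodendrocytes) was lower in ethanol-treated mice on chip 3. Its lowest, median and highest values were 11.60, 11.88 and 12.18 in the ethanol group and 11.72, 12.12 and 12.36 in the controls, so the groups overlapped. The difference was -0.41 (standard error 0.08) on chip 3, -0.09 (standard error 0.06) between chips and -0.18 (standard error 0.06) over all arrays. On chip 3 the groups did not overlap, as in 15.2% of all probes. Markers of oligodendrocytes were 0.36 lower on chip 3 in the mean of all 8 genes and 0.04 lower over all arrays, where their means ran from 10.47 to 11.61 in the ethanol group and from 10.40 to 11.33 in the controls. The oligodendrocyte markers had a mean even minus odd difference of 0.13. The controls of chip 3 lay at the even positions, so position and treatment cannot be told apart for these markers there. Within group, chip and position the Tubb4 probe had an r of 0.39 with the mean of these markers (permutation p = 0.099, adjusted p = 0.61). Without the 2 mice farthest from the median r was 0.15. The part of these markers in the Tubb4 difference was not tested. Tubb5, a β-tubulin of dividing and many other cells, differed by 0.004 (standard error 0.04) over all arrays, and 14 of 20 ethanol-treated mice lay above the control median.

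The α-tubulins and γ-tubulin showed no common direction. Tuba1a had a mean of 12.87 ± 0.16 (SD, n = 20) in ethanol-treated mice and of 12.84 ± 0.25 (SD, n = 12) in controls. Its difference was -0.16 (standard error 0.08) on chip 3 and 0.15 (standard error 0.07) between chips. Tuba1b, the α-tubulin of most tissues, likewise went from -0.26 (standard error 0.07) on chip 3 to 0.13 (standard error 0.05) between chips. This probe ranked between 8 and 21 among the brightest of each array, so quantile normalization left it only 11 distinct values on 32 arrays. Tuba4a differed by 0.09 (standard error 0.07) over all arrays, by 0.15 (standard error 0.10) on chip 3 and by 0.07 (standard error 0.09) between chips. Tubg1, the γ-tubulin that starts microtubules, went the other way from Tuba1a and Tuba1b, 0.30 higher (standard error 0.07) on chip 3 and 0.07 lower (standard error 0.07) between chips. On chip 3 the groups did not overlap in Tuba1b and Tubg1 either, so that this held for 4 of 11 tubulin probes and for 15.2% of all probes.

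Whether tubulin probes differed where treatment did not was tested first for array position. Tubb4 and both major α-tubulins were higher at even than at odd positions, in ethanol-treated mice and in controls alike. For Tubb4 the difference was 0.25 (standard error 0.04, adjusted p = 0.00041 by limma), and it was 0.20, 0.23 and 0.32 on chips 1, 2 and 4. For Tuba1b it was 0.19 (standard error 0.04, adjusted p = 0.001 by limma), and 0.15, 0.19 and 0.24 on the 3 chips. For Tuba1a it was also 0.19 (standard error 0.05), with an adjusted p of 0.011 by limma that missed the 1% threshold. Thus 2 of 11 tubulin probes were called, both higher at even positions, where 5% of all tested probes were called and 2.49% were higher. When arrays were scaled to a common median instead of quantile normalized, no tubulin probe was called by limma, nor any of the 10187 probes, and the differences were 0.16 for Tubb4 (adjusted p = 0.21) and 0.17 for Tuba1b (adjusted p = 0.11). On chip 3 the controls lay at the even positions, so for these genes position and treatment cannot be told apart there. With chip and position in the fit, the ethanol difference was -0.16 (standard error 0.09) for Tubb4, -0.07 (standard error 0.07) for Tuba1b and 0.04 (standard error 0.10) for Tuba1a.

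**Figure D4:**
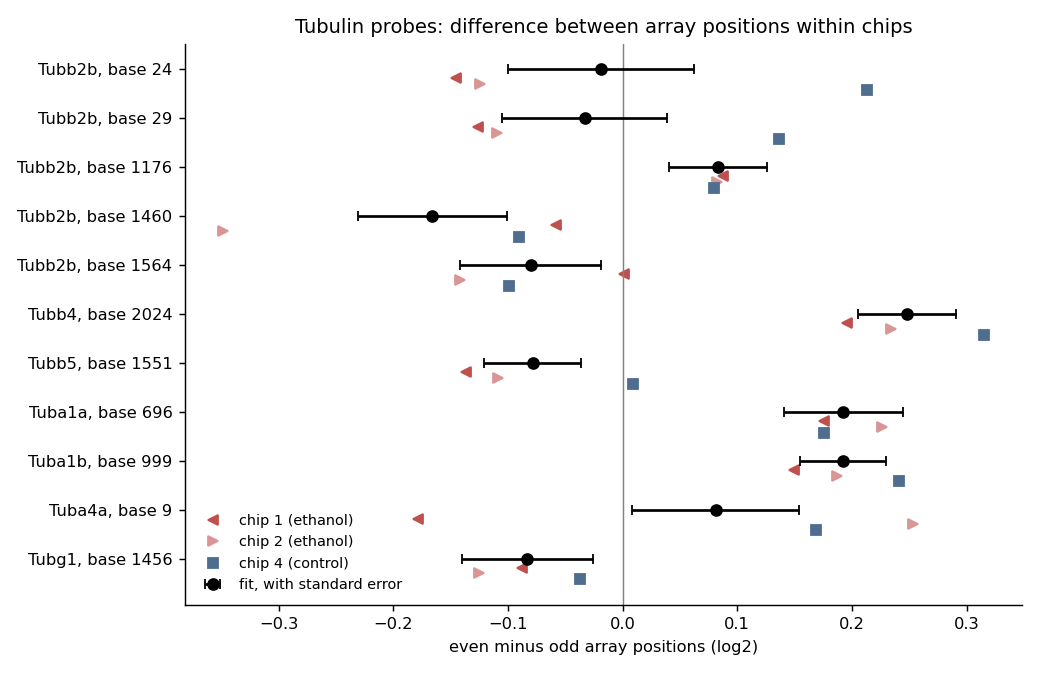
Even minus odd array positions (log2) for the 11 tested tubulin probes, as the estimate of the fit with its standard error and as the difference of means on chips 1 and 2 (8 ethanol-treated mice each) and chip 4 (8 controls). The points of Tubb4, Tuba1a and Tuba1b are above 0 on all 3 chips, and those of the Tubb2b probes at 24 and 29 are below 0 on the ethanol chips and above 0 on the control chip.

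The 5′ probes of Tubb2b did not show a position difference of the same direction on all chips. The probe at 24 had an even minus odd difference of -0.02 (standard error 0.08, adjusted p = 0.9 by limma) and that at 29 of -0.03 (standard error 0.07, adjusted p = 0.8 by limma). By chip the probe at 24 was at -0.15, -0.12 and 0.21 on chips 1, 2 and 4, and that at 29 at -0.13, -0.11 and 0.14. The sign thus differed between the ethanol chips and the control chip, and the fit, with a position term common to all chips, averages over it. The probe at 1460 was 0.17 lower at even positions (standard error 0.06, adjusted p = 0.075 by limma).

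Within a treatment group no tubulin probe differed between chips at an FDR of 1%. Between chips 1 and 2 of the ethanol group 0 of 11 passed by limma and 2 had an unadjusted p below 0.05, with 0.344% of all probes called and 17.9% at that unadjusted p. Between the ethanol-treated mice of chip 3 and those of chips 1 and 2, 0 of 11 passed by limma and 1 had an unadjusted p below 0.05, with 0% of all probes called and 10.7% at that unadjusted p. Between the controls of chips 3 and 4, 0 of 11 passed by limma and 3 had an unadjusted p below 0.05, with 3.25% of all probes called and 24.6% at that unadjusted p. These 3 were Tuba1a, 0.32 higher on chip 3 (standard error 0.08, adjusted p = 0.011 by limma), Tuba1b, 0.20 higher (standard error 0.06, adjusted p = 0.024 by limma), and Tubg1 at -0.26 (standard error 0.09, adjusted p = 0.061 by limma). For the Tubb2b probe at 24 the controls of chip 3 minus those of chip 4 were at -0.17 (standard error 0.13, adjusted p = 0.43 by limma), and for that at 29 they were at 0.02 (standard error 0.11, adjusted p = 0.94 by limma).

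Genes that act on tubulin were called in a share close to that of all genes. Of 119 listed names 83 were on the array and 56 were tested by their brightest probe, and 2 were higher and 1 lower in ethanol-treated mice at an FDR of 1% (5.36%, against 7.86% of all 7926 genes). The median difference over the lists was 0.01, and over all genes it was -0.01. None of the 5 other tubulins tested (Tuba3a, Tuba3b, Tuba8, Tubd1 and Tubb2c, the abundant β-tubulin now called Tubb4b) passed, with differences from -0.08 to 0.08 and adjusted p from 0.17 to 0.99 by limma. None of the 4 tested genes of the γ-tubulin ring complex, the 6 tubulin modifying enzymes or the 8 destabilizing and severing proteins passed either.

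**Figure D5:**
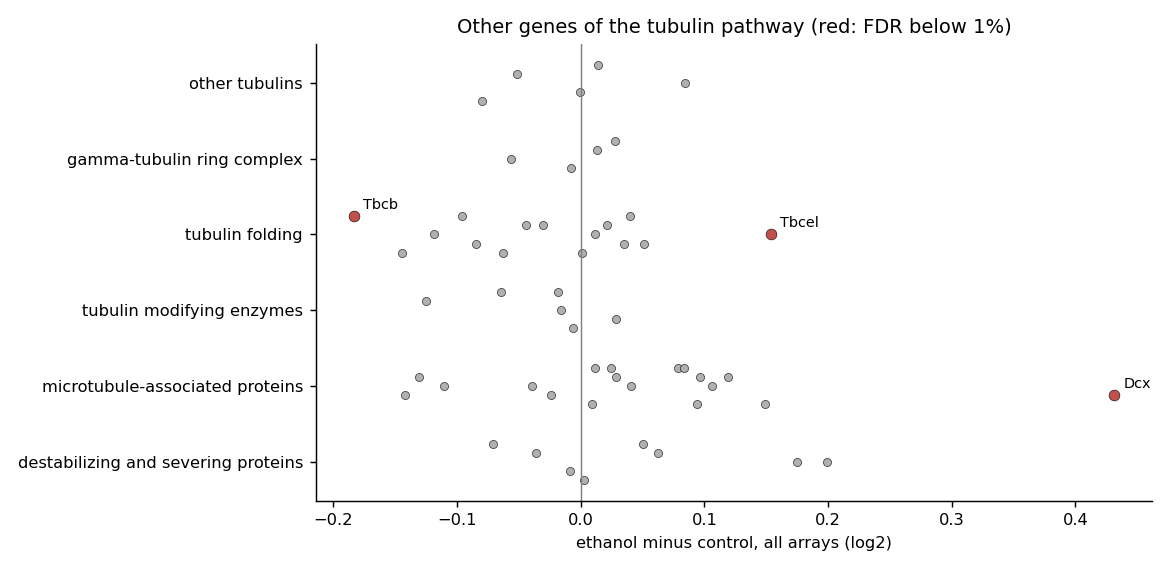
Ethanol minus control over all arrays (log2) for the 56 tested genes of 6 lists that fold, nucleate, modify, bind or sever tubulin, each by its brightest probe. Dcx (0.43), Tbcel (0.15) and Tbcb (-0.18) are the 3 genes in red that passed an FDR of 1%; points are spread vertically only for legibility.

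Among 15 genes of tubulin folding, 1 was called higher and 1 lower. Tbcel, related to the cofactor that takes the dimer apart, was 0.15 higher (standard error 0.04, adjusted p = 0.006 by limma), and 19 of 20 ethanol-treated mice lay above the control median. Tbcb, a cofactor that folds α-tubulin, was at -0.18 (standard error 0.05, adjusted p = 0.0057 by limma), with 2 of 20 above the control median. On chip 3, where both groups shared a chip, these differences were 0.01 and 0.02. With chip and position in the fit they were -0.11 (adjusted p = 0.69 by limma) for Tbcel and 0.12 (adjusted p = 0.73 by limma) for Tbcb.

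Among 18 microtubule-associated proteins, 1 was called higher. Dcx, the doublecortin that binds microtubules in migrating young neurons, ran from 8.33 over a median of 8.82 to 9.64 in the ethanol group and from 7.88 over 8.37 to 9.03 in the controls, and 18 of 20 ethanol-treated mice lay above the control median. The difference was 0.43 (standard error 0.11, adjusted p = 0.0054 by limma) over all arrays and 0.40 on chip 3, but 0.10 (adjusted p = 0.94) with chip and position in the fit. Dcx was 0.30 lower at even positions (adjusted p = 0.07). Without mouse C66 the adjusted p of Dcx was 0.016, that of Tbcb 0.016 and that of Tbcel 0.017, so all 3 calls ended. Dcx followed the 4 olfactory bulb markers with an r of 0.83 within group, chip and position, as a description, and the part of these markers in its difference was not tested.

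The other cell type markers gave no call except Aqp4, the water channel of astrocytes, which was higher in the ethanol group. It was 1 of 7 astrocyte markers tested, and 7.86% of all 7926 genes were called, so nothing is read from this call. The means over the 4 of 8 neuron markers tested ran from 12.43 to 12.71 in the ethanol group and from 12.42 to 12.76 in the controls. The mean of the 7 astrocyte markers tested was 0.09 higher in the ethanol group over all arrays and 0.16 higher on chip 3. Dlx1, the only tested gene of the immature neuron list (which did not hold Dcx), was 0.22 higher over all arrays and 0.64 higher on chip 3. It did not pass the test over all arrays. Its even minus odd difference was -0.37, and the controls of chip 3 lay at the even positions. For all these lists position and treatment cannot be told apart on chip 3. The microglia list differed by -0.06, the endothelium list by 0.04 and the blood list by -0.03. None of the lists had an adjusted p below 0.1 in its relation with a 5′ probe of Tubb2b. The Tubb2b probe at 1460 rose with the microglia list (r = 0.58, permutation adjusted p = 0.14; rho = 0.60, permutation adjusted p = 0.07). With the astrocyte list its r was 0.41 (permutation adjusted p = 0.35) and its rho 0.51 (permutation adjusted p = 0.09).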

How the data were processed

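The labels give the treatment, mouse, chip and position of each of the 32 arrays. The intensities that the authors deposited are mean bead signals per probe, not normalized, with a detection p-value and, as other values, a bead standard error and bead number, all as the authors deposited them (the array software is not given in the sources used here). All columns matched a sample (0 without one). The processing followed the steps named in the methods of the study: a variance-stabilizing transform from bead errors and numbers, quantile normalization and limma 3.58.1 in R 4.3.3 (with version 1.17.8 of data.table), with Benjamini-Hochberg adjustment over 10187 probes. The study used the Lumi package for the transform and normalization. Here the transform was written anew and the normalization was that of limma, so values can differ. The study states a detection filter only for its coexpression network. Array position and chips within a group were compared in 1 fit of group by chip plus position. For a gene with several tested probes the brightest stood for it. Relations between probes were tested by permutation of mice within group, chip and position. Steps were checked on simulated data. The members, lists and alternatives were chosen with earlier results of these data known. Named genes are all tested members, pathway genes past an FDR of 1% (up to 3 in each direction per list) and the 5 genes most like Tubb2b; Th, Trh, Doc2g, Sp8, Dlx1 and Aqp4 were named after their values were seen. Of the signal, only bead numbers and errors limit a single array (16 to 67 beads for the tested members other than the Tubb2b probe at 1564, which had 83 to 148).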

Additional observations from a re-analysis of the deposited data

Results flagged for a closer look

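In 55 checks of a tubulin probe in a group on a chip, 2 mice stood far from the rest by Dixon's test, and chance gives about 1 in 20. Mouse A20 (ethanol, chip 1) had a Tubb2b value of 8.19 at the probe at 29, with the nearest mouse at 8.50; its value at the overlapping probe at 24 was 8.74. Mouse A39 (ethanol, chip 2) had a Tubg1 value of 9.20, with the nearest mouse at 9.40.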

How the results depend on the processing

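No paired analysis was possible because the groups share no replicate numbers. The Tubb2b difference at 24 stayed between 0.56 and 0.81 over 19 alternatives and that at 29 between 0.34 and 0.62, with the highest values under normexp background correction. Of the 11 tubulin probes, 2 passed over all arrays, but 0 with chip as a fixed block, with or without position, where 17 and 2 of all probes passed. On chip 3, where 2 passed, 0 did with normexp, 5 at an FDR of 10%, and 1 to 3 when an array of that chip was left out (1 each without mouse A46, A47, A49, C54 or C55). Between chips 4 passed at an FDR of 10%. For position, where 2 passed, 0 did with median scaling and 4 at an FDR of 10%. Between controls of chips 3 and 4, where 0 passed, 3 did at an FDR of 10%, 1 with array weights, 2 without the position term, and 0 to 1 when an array of chip 3 was left out (1 without mouse A50). Of the pathway lists, 3 genes passed, 9 at an FDR of 10%, and 0 with median scaling, with chip as a fixed or random block, with chip and position, or without mouse C66. Tbcb reversed to 0.022 with chip as a block and to 0.12 with chip and position, and Tbcel to -0.11 with chip and position. Of the 5 genes most like Tubb2b, 2 were shared when centring left out position and 0 with the 5′ probe as reference. The relation of the probe at 1564 with the bulb markers had an r of 0.69 (controls) to 0.87 (ethanol-treated mice) under 7 alternatives chosen after seeing the data. Over all tested probes, the 833 called over all arrays became 159 with median scaling, 82 with chip as a random block and 2597 at an FDR of 10%. The 333 on chip 3 became 21 with normexp, 1659 at an FDR of 10% and 106 to 384 when an array of that chip was left out. The 509 for position became 0 with median scaling and 2298 at an FDR of 10%. The 1192 between chips became 627 with median scaling and 3257 at an FDR of 10%. Causes were not tested. Leaving out mouse C66 was not run for chip 3, which does not hold it, and leaving out an array of chip 3 was not run for the pathway lists. The number of arrays, 8 on chip 3, limits the precision of the only comparison within a chip.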

Other observations

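After group, chip and position were taken out, the genes most like the brightest Tubb2b probe (at 1176) over the 32 mice were Elp2 (r = 0.74), Ccar1 (0.72), Zfp60 (0.69), Pdcd2 (0.68) and Emcn (0.66). With the probe at 24 in its place, chosen after seeing the data, they were Matn4 (0.73), AI118078 (0.70), LOC100046320 (0.69), Bub3 (0.68) and Rit1 (0.68), so the 2 probes of 1 gene shared 0 of 5. These are the highest of the correlations with all other tested genes over mice of 1 data set and are given as a description.

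At the probes for Tubb2a, Tubb3 and Tubb6, median signals were 164, 167 and 187, close to those of the undetected Tubb2b probe at 1861 (146) and Tubb5 probe at 280 (157). The Tubb6 probe was detected in 8 of 20 ethanol-treated mice and 5 of 12 controls.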
